A study of Mus musculus with 3 samples.

Results

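The receptors for neurotrophic factors were followed here in neurons and glia of mouse atrial ganglia, as Ret, Gfra1, Gfra2, Gfra3, Gfra4, Ntrk2, Ntrk3, Ngfr and Lifr. They were taken by gene symbol. All 9 were found, of 30406 genes listed in every library. Cells were sorted for fluorescence from the atria of Baf53b-cre;lox-GFP mice, in which a Cre driven by the promoter of the neuronal gene Baf53b (Actl6b) switches on GFP. Of 3 droplet libraries, 1 was made from anterior atrial ganglia (age 3 months per the labels), 1 from posterior atrial ganglia (4 months) and 1 from pooled, mixed ganglia (2 months), each from female and male mice. All carried the same alleles and none was treated. Each library pools animals, no label says whether libraries share animals, and region cannot be told apart from age and library.

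Members of the GDNF family bind glycolipid-anchored co-receptors, Gfra1 to Gfra4, which present them to the shared tyrosine kinase Ret. Neurotrophins act through kinases such as Ntrk2 and Ntrk3 and through the p75 receptor Ngfr, and LIF, CNTF and cardiotrophin act through Lifr paired with gp130 (Il6st). In mice, neurturin acting on Gfra2 and Ret is known for its part in the parasympathetic innervation of the heart.

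Unique molecular identifiers (UMIs) count captured transcripts, and levels are given as UMIs per 10000 of all UMIs in a class of cells. Neurons were barcodes with at least 10000 UMIs and with Snap25, Prph and Stmn2 detected, with 1315 anterior, 1447 posterior and 1998 mixed, at median depths of 39854, 57151 and 57062.5 UMIs. They were sorted by 3 genes outside the receptor set. Nos1 neurons (nitric oxide synthase, at least 1 UMI per 10000) numbered 84, 61 and 55 in the anterior, posterior and mixed library. Ddah1 neurons (Ddah1 at 1 or above, the neuropeptide gene Npy below 4) numbered 103, 436 and 336. Npy neurons (Npy at 4 or above, Ddah1 below 1) numbered 1047, 760 and 1504, and the rest stayed unclassed. Glia were barcodes with at least 3 of 8 satellite glia and Schwann cell markers and few markers of other cells, 137, 125 and 90 in the same order, with median depths of only 1945, 3778 and 2526.5 UMIs. The 8 glial markers summed to 125 to 221 UMIs per 10000 in glia and to 2.17 to 4.44 in neurons. The posterior library held 66 neurons with under 30 UMIs per 10000 of the 3 gate genes and with fibroblast markers at 30.2 UMIs per 10000. The anterior and mixed libraries held 6 and 5 neurons under that limit, with fibroblast markers at 0.782 and 20.5 UMIs per 10000. Pairs of libraries shared 2 or 3 barcode sequences.

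Ret lies on chromosome 6 (chr6:118151745-118197718, minus strand), Gfra2 on chromosome 14 (chr14:70890120-70979838, plus), Ntrk3 on chromosome 7 (chr7:78175959-78738012, minus), Ngfr on chromosome 11 (chr11:95568818-95587735, minus) and Lifr on chromosome 15 (chr15:7090614-7197489, plus) in GENCODE vM21 on GRCm38. All 9 genes were called between glia and neurons below, 4 higher and 5 lower in glia. An example of each direction was taken. Ntrk2, the BDNF receptor kinase (chr13:58806569-59133970, plus), was higher in glia. Gfra4, the persephin co-receptor (chr2:131039632-131043088, minus), was lower. The upstream sequences of these examples are shown. They are the 250 bases before the start of each gene, chr13:58806319-58806568 on the plus strand and chr2:131043089-131043338 on the minus strand, from RefSeq on GRCm38.p6, written 5′ to 3′ along the gene. Capitals mark each CANNTG, the E-box letters (the pattern is the same on either strand).
Ntrk2: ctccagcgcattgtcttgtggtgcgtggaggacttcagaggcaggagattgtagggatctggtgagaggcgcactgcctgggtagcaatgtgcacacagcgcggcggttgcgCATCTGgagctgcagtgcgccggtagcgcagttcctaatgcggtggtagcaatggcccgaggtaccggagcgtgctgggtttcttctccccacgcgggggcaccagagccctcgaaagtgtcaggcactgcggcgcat
Gfra4: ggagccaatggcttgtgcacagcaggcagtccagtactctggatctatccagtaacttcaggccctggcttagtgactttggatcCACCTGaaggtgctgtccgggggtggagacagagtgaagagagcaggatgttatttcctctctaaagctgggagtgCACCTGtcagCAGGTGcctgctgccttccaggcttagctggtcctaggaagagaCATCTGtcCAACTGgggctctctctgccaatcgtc
CANNTG occurred 1 time in the Ntrk2 window and 5 times in the Gfra4 window, and 66.2% of 32851 such windows held it. GGGCGG, searched on both strands, occurred 0 times in either and in 32.7% of windows. The Ntrk2 window held 19 CG pairs and the Gfra4 window 2, beside a median of 6. RefSeq lists a second Gfra4 start inside the gene, and its window (chr2:131042683-131042932, not shown) held 2 CANNTG and 5 CG pairs. Among other receptors, the window of Ngfr, lower in glia, held 16 CG pairs and 2 CANNTG. That of Gfra1, higher in glia, held 10 and 3. For Lifr, also higher in glia, 1 window held 43 CG pairs and 0 CANNTG and another 3 and 3. The windows of Ngfr, Gfra1 and Lifr precede RefSeq starts that lie inside the gene spans of GENCODE. No link between these letters and expression was tested.

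In neurons as a whole, Ret, Gfra2, Ntrk3 and Ngfr gave most of the receptor UMIs. At full depth Gfra4, Ntrk2 and Lifr were detected in most neurons, and Gfra1 and Gfra3 were at or near 0. Ret, the signalling kinase of the GDNF family, stood at 3.68, 3.16 and 2.05 UMIs per 10000 in the anterior, posterior and mixed library. Ngfr stood at 3.62, 3.61 and 2.27, and Ntrk3, the neurotrophin-3 receptor kinase, at 2.53, 3.42 and 1.83. The mixed library was the lowest for all 3.
Gfra2, the neurturin co-receptor, gave 1.32, 1.74 and 0.954 UMIs per 10000. Gfra4 gave 0.692, 0.524 and 0.586, Lifr 0.396, 0.658 and 0.307, and Ntrk2 0.304, 0.392 and 0.284. Glia held far more Ntrk2 (5.53 to 6.95), and glial RNA in neuron barcodes was not subtracted. Its part in the neuronal Ntrk2 level was examined only by a limit of 1 glial UMI per 10000. Under that limit Ntrk2 stood at 0.277 in anterior and 0.363 in posterior neurons. Gfra1, the GDNF co-receptor, gave 45, 47 and 35 UMIs in all neurons of the 3 libraries, or 0.00867, 0.00583 and 0.003 UMIs per 10000, and Gfra3, the artemin co-receptor, 4, 9 and 11 UMIs. The counts are per gene, so the full-length and truncated forms of Ntrk2 and Ntrk3 cannot be told apart.

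**Figure D1:**
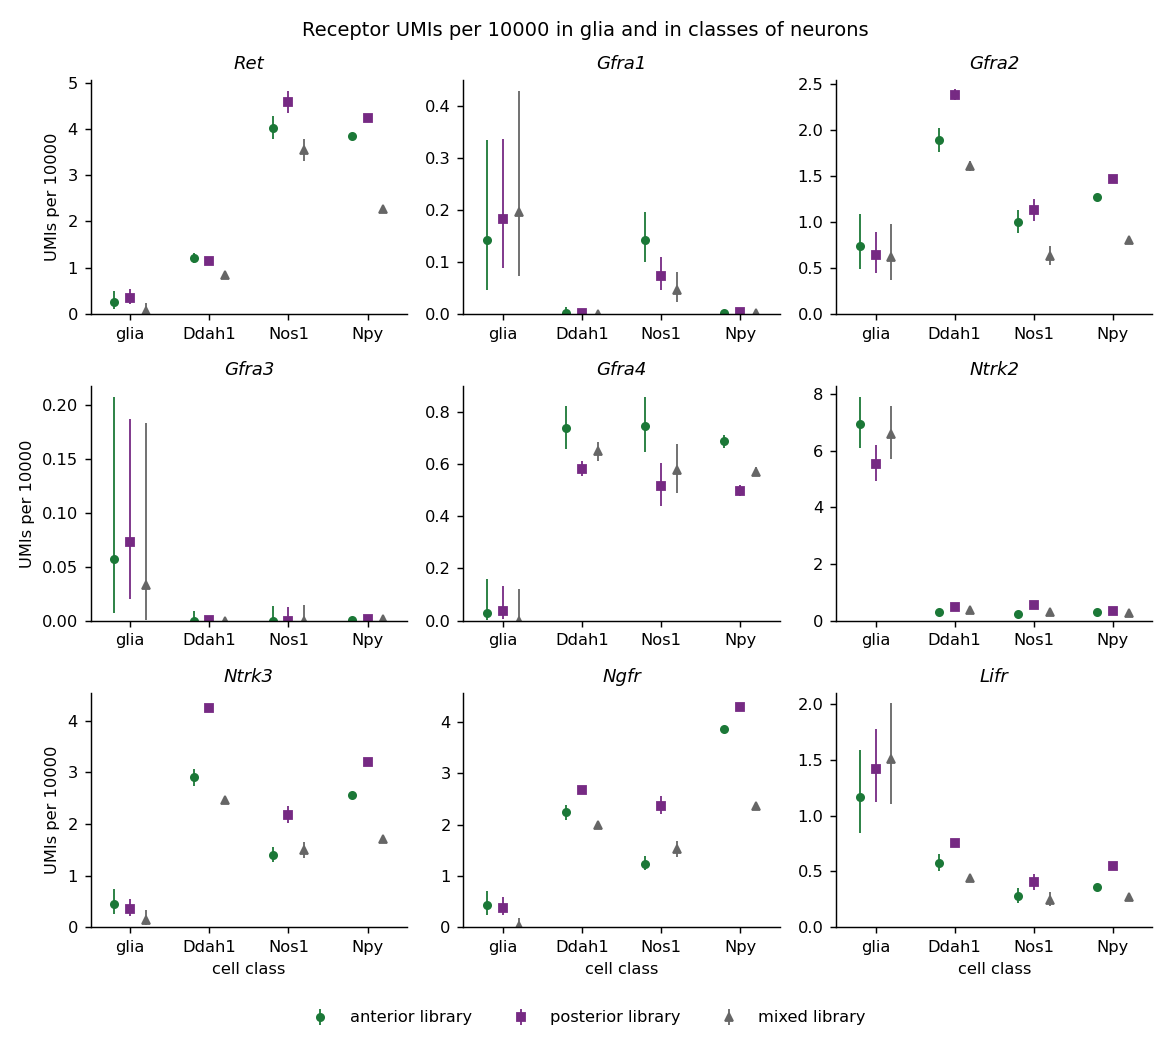
UMIs per 10000 (vertical axis, linear, a scale of its own for each receptor) in glia, Ddah1, Nos1 and Npy neurons. Points are libraries and bars are exact Poisson 95% intervals, which cover counting error only. Ret is lowest of the neuron classes in Ddah1 neurons in each library, Gfra1 stands out in Nos1 neurons and glia, and Ntrk2 and Lifr are highest in glia.

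Ddah1 neurons carried less Ret and Ngfr than Npy neurons, and more Gfra2, Lifr and Ntrk3. Ntrk2 was higher in the posterior and mixed libraries only. The calls of Ngfr, Ntrk2 and Ntrk3 depended on the processing, as given below. Ret had 1.22, 1.15 and 0.848 UMIs per 10000 in Ddah1 neurons of the anterior, posterior and mixed library, against 3.85, 4.23 and 2.26 in Npy neurons. The classes did not overlap. The fitted log2 change was -1.67 ± 0.11 (SE, n = 3 libraries per class), 0.314 of the level in Npy neurons (edgeR quasi-likelihood test with library as a block, adjusted p = 1.44e-11 over 12138 genes). Within the classes Ret varied widely from cell to cell: the 10th percentile, the median and the 90th percentile were 0.215, 0.851 and 1.98 UMIs per 10000 in anterior Ddah1 neurons, against 0.859, 2.66 and 9.35 in anterior Npy neurons.

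Its co-receptor Gfra2 went the other way. Gfra2 had 1.89, 2.38 and 1.61 UMIs per 10000 in Ddah1 neurons and 1.27, 1.47 and 0.808 in Npy neurons, again with no overlap, a log2 change of 0.75 ± 0.08 (edgeR, adjusted p = 1.09e-07). Lifr had 0.579, 0.751 and 0.445 in Ddah1 neurons and 0.363, 0.55 and 0.267 in Npy neurons. It was higher in Ddah1 neurons in each of the 3 libraries although the classes overlapped, with a log2 change of 0.60 ± 0.08 (edgeR, adjusted p = 2.76e-06).

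Among the neurotrophin receptors, Ngfr had 2.24, 2.67 and 1.99 UMIs per 10000 in Ddah1 neurons and 3.86, 4.29 and 2.36 in Npy neurons (log2 change -0.59 ± 0.13, edgeR, adjusted p = 0.00123). Ntrk3 had 2.9, 4.25 and 2.47 in Ddah1 neurons and 2.57, 3.19 and 1.71 in Npy neurons (0.36 ± 0.10, edgeR, adjusted p = 0.00733). Each kept its direction in all 3 libraries, and in both cases the classes overlapped. Ntrk2 had 0.287, 0.491 and 0.39 in Ddah1 neurons and 0.303, 0.347 and 0.259 in Npy neurons, higher in posterior and mixed ganglia and not in anterior ganglia (0.41 ± 0.12, edgeR, adjusted p = 0.0146).

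Gfra4 did not pass the test, with 0.737, 0.583 and 0.649 UMIs per 10000 in Ddah1 neurons and 0.688, 0.499 and 0.571 in Npy neurons (0.17 ± 0.07, edgeR, adjusted p = 0.112). Gfra1 had 1, 4 and 2 UMIs in Ddah1 neurons and 6, 17 and 20 in Npy neurons, and Gfra3 0, 1 and 0 against 4, 8 and 10 (edgeR, adjusted p = 0.423 and 0.066). Of the 9 receptors 4 were called higher and 2 lower, where 22.5% of all genes tested were called in either direction, 11.0% higher and 11.5% lower. The classes did not overlap for Gfra2, higher, and for Ret, lower, and Gfra3 had too few UMIs for its overlap to be read. No overlap held for 8.56% of all genes in the higher direction, 7.93% in the lower and 16.5% in either. The median log2 change was 0.17 over the receptors and 0.00 over all genes. DESeq2 did not call Ntrk2, Ntrk3 or Ngfr (adjusted p = 0.348, 0.207 and 0.177). Ntrk2 and Ntrk3 were also not called without the posterior library (0.128 and 0.0789) or without the mixed library (0.126 and 0.0636), nor Ntrk2 among neurons with at most 1 glial UMI per 10000 (0.0507). Without the library block, of the 6 receptors only Ret was still called, with adjusted p = 0.0822 for Gfra2 and 0.264 to 0.927 for Lifr, Ngfr, Ntrk2 and Ntrk3. Glial markers summed to 2.60, 2.81 and 4.74 UMIs per 10000 in Ddah1 neurons and to 2.40, 1.95 and 4.39 in Npy neurons. Their part in these changes was tested only by that limit on glial UMIs, which ended no call but that of Ntrk2.

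Other genes of these pathways were read against the 22.5% of all genes called between Ddah1 and Npy neurons. Among further receptors and co-receptors Gas1 (0.90) and the CNTF co-receptor Cntfr (0.50) were higher (edgeR, adjusted p = 0.00947 and 7.58e-05). Nrtn, the gene for neurturin, was the only tested ligand of the GDNF family and was lower (-1.46, edgeR, adjusted p = 0.000198), with 7, 23 and 9 UMIs in Ddah1 neurons and 126, 111 and 141 in Npy neurons. Of 21 adaptors and kinases 4 were higher, led by the docking protein gene Gab1 (1.49) and Jak1 (0.75), a kinase bound to gp130, and 1 was lower (Grb10, -0.54), a share near that of all genes. Of 8 feedback and response genes 4 were lower, led by Spry1 (-1.43), Dusp6 (-1.33) and Etv5 (-1.08). Spry2 (0.69) and Socs3 (0.87) were higher, and Etv4 and Egr1 were not called. The median log2 change was -0.72 over these 8 genes.

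Nos1 neurons differed from Npy neurons in other receptors. Gfra1 was the member that set them apart: it gave 38, 22 and 12 UMIs in the Nos1 neurons of the anterior, posterior and mixed library, or 0.142, 0.0726 and 0.0459 UMIs per 10000, against 6, 17 and 20 UMIs in the far more numerous Npy neurons, or 0.00144, 0.004 and 0.00227. The classes did not overlap, and the fitted log2 change was 4.91 ± 0.39 (SE, n = 3 libraries per class, edgeR, adjusted p = 2.74e-09). A Gfra1 UMI was seen in 23.8%, 21.3% and 14.5% of Nos1 neurons, whose median depths were 33729.5, 50422 and 45938 UMIs, and in 0.573%, 1.84% and 1.26% of the deeper Npy neurons (40140, 58034.5 and 56764.5 UMIs). With each neuron thinned to 10000 UMIs the shares were 8.33%, 9.84% and 7.27% in Nos1 neurons and at most 0.526% in Npy neurons.

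Ngfr had 1.24, 2.37 and 1.51 UMIs per 10000 in Nos1 neurons and 3.86, 4.29 and 2.36 in Npy neurons, lower in each library (log2 change -1.07 ± 0.14, edgeR, adjusted p = 6.66e-06). Ntrk3 had 1.4, 2.18 and 1.49 in Nos1 neurons and 2.57, 3.19 and 1.71 in Npy neurons, also lower in each library (-0.59 ± 0.11, edgeR, adjusted p = 0.000452). Gfra2 had 1, 1.13 and 0.631 in Nos1 neurons and 1.27, 1.47 and 0.808 in Npy neurons (-0.40 ± 0.10, edgeR, adjusted p = 0.0071). For all 3 the classes overlapped across libraries.
Lifr had 0.281, 0.403 and 0.245 UMIs per 10000 in Nos1 neurons and 0.363, 0.55 and 0.267 in Npy neurons, a call near the threshold (-0.37 ± 0.11, edgeR, adjusted p = 0.0428). Nos1 neurons were not alike in Ngfr, Ntrk3 and Lifr, as divided below.

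Ret had 4.02, 4.57 and 3.54 UMIs per 10000 in Nos1 neurons and 3.85, 4.23 and 2.26 in Npy neurons. That difference did not pass the test (0.22 ± 0.10, edgeR, adjusted p = 0.228), but did with Nos1 neurons limited to at least 3 Nos1 UMIs per 10000 (0.37, edgeR, adjusted p = 0.0296). Gfra4 had 0.745, 0.518 and 0.577 in Nos1 neurons and 0.688, 0.499 and 0.571 in Npy neurons, and Ntrk2 0.247, 0.535 and 0.287 in Nos1 neurons and 0.303, 0.347 and 0.259 in Npy neurons, neither called (adjusted p = 0.945 and 0.571, edgeR). Gfra3 had no UMI in Nos1 neurons, which allows up to 0.0112, 0.0099 and 0.0115 UMIs per 10000 by a count of 3.

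In all, 1 of the 9 receptors was called higher and 4 lower, where 8.86% of genes tested were called in either direction, 5.02% higher and 3.85% lower. Among receptors with UMIs in both classes, they did not overlap for Gfra1, higher. No overlap held for 7.36% of all genes in the higher direction, 5.07% in the lower and 12.4% in either. The median log2 change was -0.37 over the receptors and -0.02 over all genes. Gfra2 was not called without the anterior library (adjusted p = 0.0517) or the posterior library (0.0536). Lifr was not called by DESeq2 (0.0686), without TMM factors (0.147), without the anterior (0.235) or posterior library (0.315), or at a minimum of 20000 UMIs per neuron (0.0849). Without the library block only Gfra1 was still called, and the other 4 had adjusted p = 0.221 to 0.997. Both comparisons use the same Npy neurons, so they are not independent.

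Of the further genes, Nrtn was higher in Nos1 neurons, with 17, 14 and 13 UMIs or 0.0636, 0.0462 and 0.0497 UMIs per 10000 against 0.0303, 0.0261 and 0.016 in Npy neurons (1.09, edgeR, adjusted p = 0.013). Among further receptors and co-receptors Gas1 was higher (1.40, edgeR, adjusted p = 0.0143). Of 21 adaptors and kinases 2 were higher, among them Jak1 (0.65), and 3 were lower, among them the adaptor genes Dok5 (-0.75) and Shc3 (-0.55). Of 8 feedback and response genes Spry2 (1.60) and Egr1 (0.56) were higher and none was lower. Over all genes tested, 8.86% were called between Nos1 and Npy neurons, 5.02% higher and 3.85% lower.

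**Figure D2:**
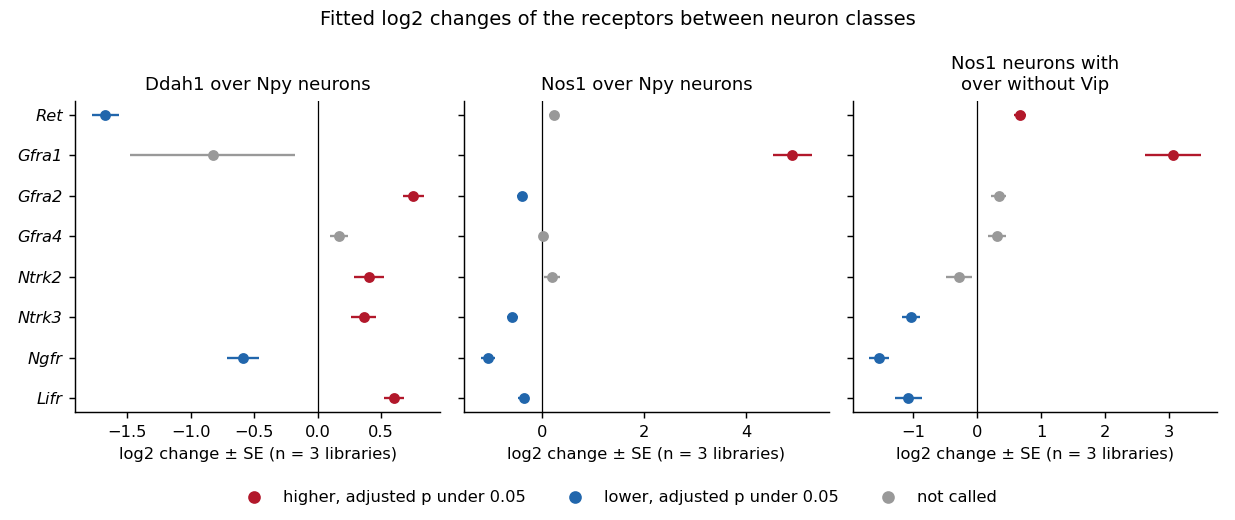
Fitted log2 changes (horizontal axis, a scale of its own in each panel) with standard errors for 8 receptors between Ddah1 and Npy neurons, Nos1 and Npy neurons, and Nos1 neurons with and without Vip, n = 3 libraries. Red is higher and blue lower at an adjusted p under 0.05, and grey was not called. Ret is at -1.67 in the first panel and Gfra1 at 4.91 in the second and 3.06 in the third.

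Nos1 neurons were themselves divided by Vip, the vasoactive intestinal peptide gene. This split, at 1 Vip UMI per 10000, was chosen after the data had been seen. The anterior, posterior and mixed library held 61, 23 and 23 Nos1 neurons with Vip and 23, 38 and 32 without. The receptors fell on opposite sides of it: Ret and Gfra1 were higher with Vip, and Ngfr, Ntrk3 and Lifr lower. Of the 8 receptors tested 2 were called higher and 3 lower, where 11.1% of 8778 genes were called, 5.25% higher and 5.86% lower. The same 5 did not overlap between the subclasses, which held for 8.58% of genes in the higher direction, 6.12% in the lower and 14.7% in either.
Gfra1 gave 37, 18 and 9 UMIs in Nos1 neurons with Vip and 1, 4 and 3 in those without, or 0.198, 0.19 and 0.0929 UMIs per 10000 against 0.0125, 0.0192 and 0.0182 (log2 change 3.06 ± 0.44, edgeR, adjusted p = 1.83e-05). It was seen in 31.1%, 43.5% and 21.7% of those with Vip and in 4.35%, 7.89% and 9.38% of those without, whose median depths were 33697, 56043 and 51204 UMIs against 33762, 46142 and 41975 with Vip. Ret had 4.4, 6.47 and 4.85 UMIs per 10000 with Vip and 3.14, 3.71 and 2.77 without, with no overlap (0.67 ± 0.09, edgeR, adjusted p = 5.17e-06).

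Ngfr had 0.929, 0.655 and 0.826 UMIs per 10000 in Nos1 neurons with Vip and 1.97, 3.15 and 1.92 in those without (-1.54 ± 0.15, edgeR, adjusted p = 5.72e-08). Ntrk3 had 1.27, 0.941 and 0.898 with Vip and 1.73, 2.75 and 1.83 without (-1.04 ± 0.14, edgeR, adjusted p = 8.08e-06). Lifr had 0.214, 0.211 and 0.165 with Vip and 0.438, 0.49 and 0.291 without (-1.08 ± 0.21, edgeR, adjusted p = 0.000667). All 3 were lower with Vip in each library, and there also lower than in Npy neurons. Without Vip, Lifr was above Npy neurons in the anterior and mixed libraries (0.363 and 0.267 in Npy neurons) and below in the posterior (0.55). Ntrk3 without Vip was above Npy neurons in the mixed library only (1.71), and Ngfr in none. The subclasses were not tested against Npy neurons.
Gfra2, Gfra4 and Ntrk2 were not called (0.33, 0.31 and -0.28, adjusted p = 0.0868, 0.216 and 0.477, edgeR). DESeq2 did not call Lifr (adjusted p = 0.12), and without the library block Ret was not called (0.109). Of the further genes, Cntfr (-0.50), Dok5 (-1.94) and Shc1 (-1.11) were lower with Vip, and Jak1 (1.27), Spry2 (2.15) and Egr1 (1.01) higher.

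**Figure D3:**
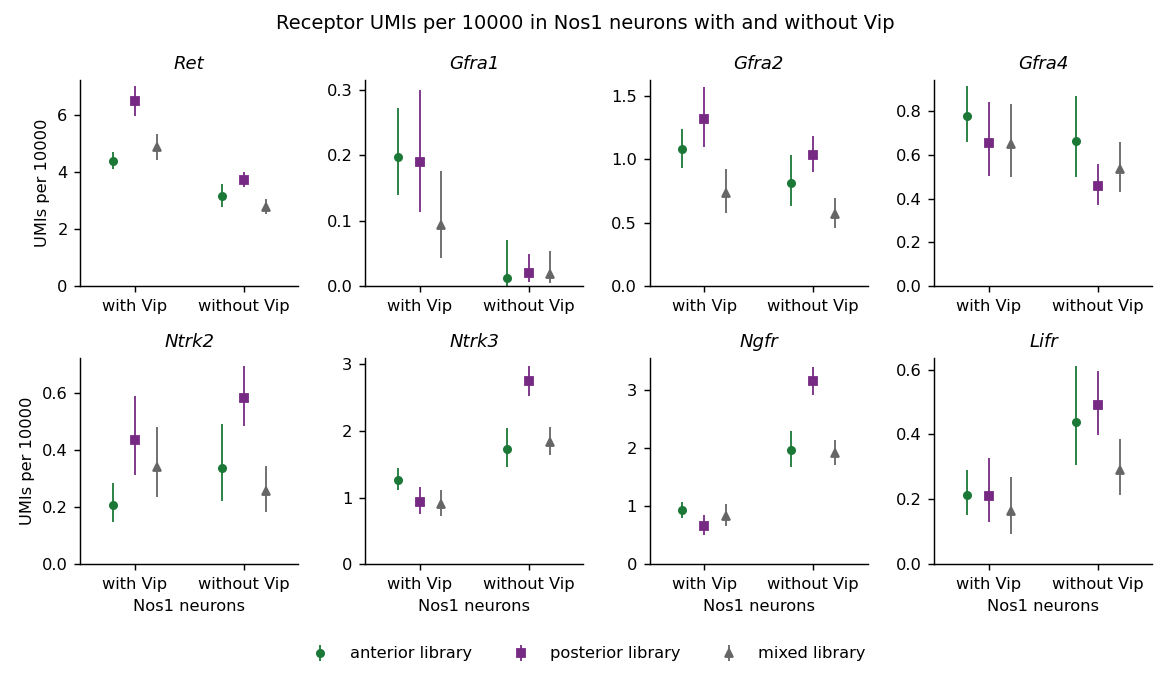
UMIs per 10000 (vertical axis, a scale of its own for each receptor) in Nos1 neurons with at least 1 Vip UMI per 10000 and in those with fewer. Points are libraries and bars exact Poisson 95% intervals. Gfra1 is at 0.0929 to 0.198 with Vip and at 0.0125 to 0.0192 without, and Ngfr at 0.655 to 0.929 with Vip and at 1.92 to 3.15 without.

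Glia and neurons used different members of the set. Ntrk2 and Lifr were higher in glia, Gfra1 as well at a low level, and Ret, Gfra4, Ngfr, Ntrk3 and Gfra2 were lower. Since glia were shallow, RNA freed from neurons could supply part of what they show. Neuron genes in glia stood at 4.11% to 8.34% of their neuronal level in the anterior library, 6.39% to 7.84% in the posterior and 1.66% to 3.95% in the mixed library (Snap25, Prph, Stmn2 and Npy, of which the first 3 were used to gate glia). The highest of these shares times the level of a receptor in neurons gave its carry-over level.
Ntrk2 had 6.95, 5.53 and 6.59 UMIs per 10000 in glia of the anterior, posterior and mixed library, against 0.304, 0.392 and 0.284 in neurons (log2 change 3.92 ± 0.26, SE, n = 3 libraries per class, edgeR, adjusted p = 1.7e-48). With each cell thinned to 1000 UMIs it was seen in 48.9%, 40% and 52.2% of glia and in 3.35%, 3.25% and 2.65% of neurons. Lifr had 1.17, 1.42 and 1.51 in glia and 0.396, 0.658 and 0.307 in neurons (1.28 ± 0.23, edgeR, adjusted p = 1.49e-07). Neither overlapped between glia and neurons.

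Gfra1 gave 5, 10 and 6 UMIs in glia, or 0.143, 0.183 and 0.197 UMIs per 10000, levels above those of Nos1 neurons in the posterior and mixed libraries (0.0726 and 0.0459), with intervals that met in each library. The change against all neurons was 4.63 ± 0.60 (edgeR, adjusted p = 1.27e-13). Gfra3 was called higher too (adjusted p = 1.12e-06, edgeR) but rests on 2, 4 and 1 UMIs in glia and 4, 9 and 11 in neurons.

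Ret had 9, 19 and 2 UMIs in glia, or 0.257, 0.347 and 0.0656 UMIs per 10000, beside carry-over levels of 0.307, 0.248 and 0.081. Its change was -4.00 ± 0.32 (edgeR, adjusted p = 1.45e-33). Ngfr had 0.429, 0.383 and 0.0328 in glia (carry-over 0.302, 0.283 and 0.0898) and Gfra4 0.0286, 0.0365 and 0 (0.0578, 0.041 and 0.0231). For these 3 receptors the interval of the glial level reached down to carry-over in each library, so no glial expression was detectable at this depth. Their changes were -3.82 ± 0.32 for Ngfr and -4.91 ± 0.50 for Gfra4 (edgeR, adjusted p = 3.29e-32 and 5.43e-22). Ntrk3, at 0.458, 0.347 and 0.131 in glia, was above carry-over in the anterior library only (0.211, 0.268 and 0.0722), with a change of -3.40 ± 0.31 (edgeR, adjusted p = 2.65e-27).
Gfra2 was lower in glia than in neurons (-1.34 ± 0.26, edgeR, adjusted p = 8.8e-07), yet its glial level of 0.744, 0.639 and 0.623 UMIs per 10000 lay above carry-over in all 3 libraries (0.11, 0.136 and 0.0377). So did those of Ntrk2, Lifr and Gfra1.

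All 9 receptors were called, 4 higher and 5 lower, where 56.3% of 13547 genes were called, 24.6% higher and 31.8% lower. Gfra3 aside, with its few UMIs, none of the receptors overlapped between glia and neurons, which held for 62.0% of genes, 30.8% higher and 31.2% lower. TMM scaling moved the median log2 change of all genes by 0.34, to -0.25, and the 9 directions were the same without it. Fibroblast markers summed to 3.64 to 5.81 UMIs per 10000 in glia, nearly all from Col1a2. Smooth muscle and pericyte markers summed to 1.12, 3.8 and 0.558 in anterior, posterior and mixed glia, with Rgs5 at 3.34 of the posterior sum, and macrophage markers to at most 0.0572. Their part in the glial levels was not tested.
Nrtn was called higher in glia (1.74) on 5, 4 and 2 UMIs there.
Of the ligands in the LIF and CNTF group, Cntf (4.86) was higher in glia. Cntf gave 9, 10 and 0 UMIs in glia of the anterior, posterior and mixed library and 31, 50 and 1 in neurons, so the mixed library did not show it. Among further receptors and co-receptors 7 were higher, led by the oncostatin M receptor gene Osmr (6.48, with 14, 19 and 0 UMIs) and Gas1 (3.26). Il6st (2.42) and Cntfr (2.01), partners of Lifr named after their values were seen, were among the 7. Of 21 adaptors and kinases 4 were higher, led by Gab1 (4.33), and 9 lower, led by Shc2 (-4.76, with 0, 2 and 0 UMIs in glia) and Dok5 (-3.60). Of 8 feedback and response genes 5 were higher, led by Socs3 (5.71), Etv4 (5.27, with 4, 2 and 2 UMIs) and Egr1 (5.18), and 1 was lower. Socs3 and Egr1, which respond quickly to cytokines and to cell stress, had 20.1, 14.9 and 3.71 and 27.3, 21.8 and 7.09 UMIs per 10000 in glia, the mixed library lowest for each.

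**Figure D4:**
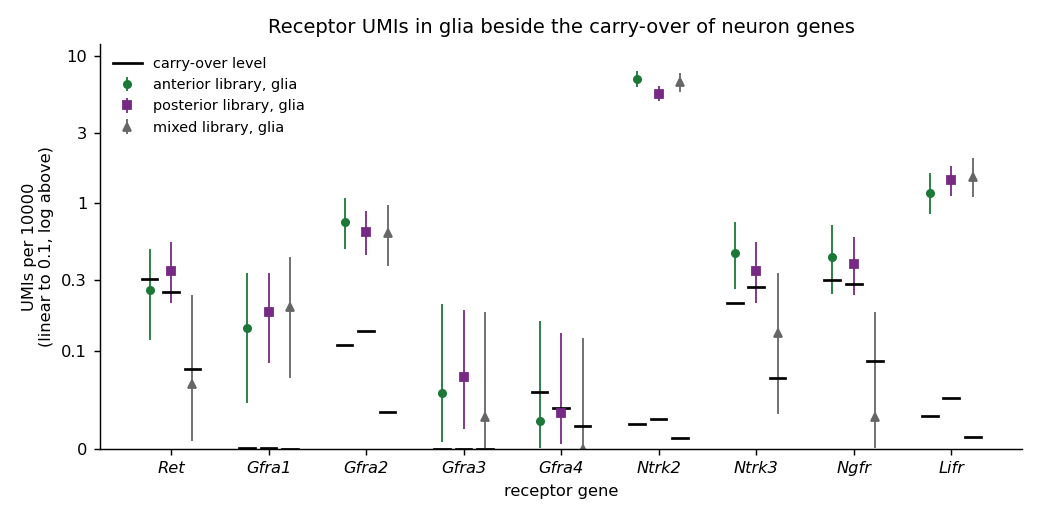
UMIs per 10000 in glia (vertical axis, linear to 0.1 and logarithmic above) for each receptor. Points are libraries, coloured bars exact Poisson 95% intervals, and black marks the level that carry-over of neuronal RNA would give. Ntrk2 at 5.53 to 6.95, Lifr at 1.17 to 1.51, Gfra2 at 0.623 to 0.744 and Gfra1 at 0.143 to 0.197 lie above their marks, and the bars of Ret, Ngfr and Gfra4 reach theirs.

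Combinations were read in single neurons after each was thinned to 10000 UMIs, so that depth was equal. A median of 4 receptors was detected per neuron in each library. Ret together with any Gfra co-receptor was seen in 71.7%, 67.4% and 59.6% of neurons of the anterior, posterior and mixed library, and Ret, Gfra2, Ntrk3 and Ngfr all together in 48.1%, 50.5% and 32.2%. Without thinning the 4 were seen together in 88.4% to 92.4%, so many absences at 10000 UMIs came from the thinning.
Ddah1 neurons stood out by co-receptor without kinase. A Gfra gene without Ret was seen in 40.8%, 33.9% and 40.5% of Ddah1 neurons (exact 95% intervals 31.2% to 50.9%, 29.5% to 38.6% and 35.2% to 45.9%) and in 8.6%, 8.42% and 13.6% of Npy neurons (6.97% to 10.5%, 6.55% to 10.6% and 11.9% to 15.5%). Unthinned, the shares were 7.77%, 3.9% and 3.27% of Ddah1 neurons and 1.34%, 1.71% and 0.798% of Npy neurons. The converse, Ret without any Gfra, was seen in 3.88%, 2.98% and 5.65% of Ddah1 neurons and in 15%, 12.8% and 20.9% of Npy neurons. In Nos1 neurons it was 21.4%, 19.7% and 25.5%.

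Ntrk3 and Ngfr were detected together in 80.6%, 83.9% and 75.3% of Ddah1 neurons, in 38.1%, 63.9% and 41.8% of Nos1 neurons and in 79.6%, 83.3% and 67.3% of Npy neurons. Nos1 neurons were lowest in each library. All 4 of Ret, Gfra2, Ntrk3 and Ngfr were seen in 16.7%, 36.1% and 20% of Nos1 neurons, against 51.7%, 55.8% and 31.1% of Npy neurons. Of Npy neurons with Ret, 68.3%, 72.2% and 53.6% also had Gfra2, and of those without Ret, 58.6%, 51.7% and 48.5%.

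**Figure D5:**
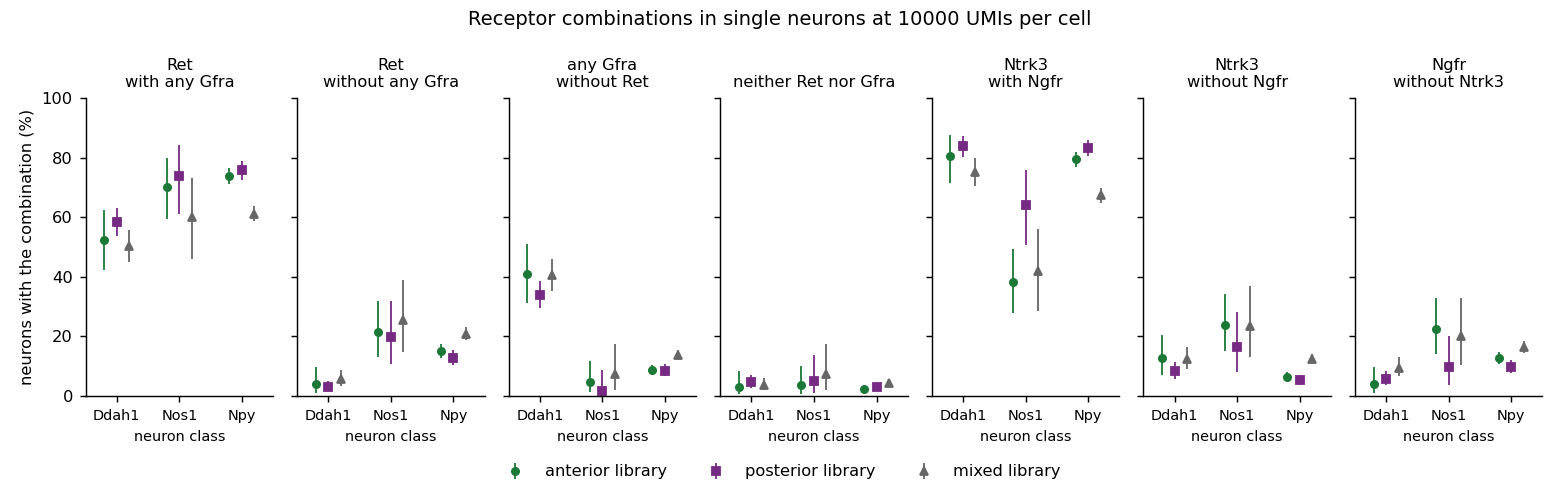
Shares of neurons (vertical axis, percent) with each combination of receptors at 10000 UMIs per cell, in Ddah1, Nos1 and Npy neurons. Points are libraries and bars exact binomial 95% intervals, which cover counting error only. A Gfra gene without Ret is seen in 33.9% to 40.8% of Ddah1 neurons and in 8.42% to 13.6% of Npy neurons.

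Across neurons of a library, at 10000 UMIs per cell, Ret and Ngfr varied together more than other pairs of receptors did, with Pearson r of 0.49, 0.54 and 0.33 over 1315, 1447 and 1998 neurons. Within Npy neurons alone r was 0.55, 0.60 and 0.34, and within Ddah1 neurons 0.28, 0.35 and 0.35, and within the fewer Nos1 neurons 0.10, 0.25 and 0.26. Ntrk3 and Ngfr came next in the anterior and posterior libraries (0.38 and 0.41, against 0.16 in the mixed library). These are descriptions of cells that share a library. Among 7175 genes detected in at least 10% of neurons of every library, the 3 most like Ret (by the lowest of the 3 library values, at least 0.3) were Vat1l (0.52, 0.47 and 0.34), Ngfr, and Atp8a1 (0.42, 0.48 and 0.31). Those most like Ntrk3 were Map1b (0.55, 0.58 and 0.34), Meg3 (0.44, 0.52 and 0.33) and Slc5a7, the choline transporter gene (0.48, 0.57 and 0.32), and for Ngfr only Ret. No gene reached 0.3 for the other receptors that could be compared.

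Anterior and posterior neurons were compared as 1 library each, so no test of region is possible and the intervals below cover counting error alone. Ddah1 neurons made up 7.83% of anterior neurons and 30.1% of posterior neurons. Over all neurons Lifr was the only receptor past 1.5-fold, with 0.396 UMIs per 10000 in anterior and 0.658 in posterior neurons, a ratio of 0.602 (95% interval 0.572 to 0.634). Gfra1 was just inside, at 1.49 (0.965 to 2.29). By comparison, 8.50% of genes passed 1.5-fold in either direction, 1.76% higher and 6.74% lower in the anterior library. The ratio of Lifr was also below 1 within Npy (0.661), Ddah1 (0.771) and Nos1 neurons (0.697).
Gfra4 ran the other way, with a ratio of 1.32 over all neurons and of 1.38, 1.27 and 1.44 within Npy, Ddah1 and Nos1 neurons. Ntrk3 had a ratio of 0.74 over all neurons and of 0.805, 0.683 and 0.643 within the same classes. Gfra2 stood at 0.757 and Ntrk2 at 0.774 over all neurons, and Ngfr at 1.00.

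Ret was higher in anterior neurons as a whole (3.68 against 3.16 UMIs per 10000, ratio 1.17, 1.14 to 1.19), but not within Npy neurons (3.85 against 4.23, ratio 0.911, 0.891 to 0.93) or Nos1 neurons (4.02 against 4.57, 0.879), and within Ddah1 neurons it was 1.06 (0.959 to 1.16). In Nos1 neurons Gfra1 had a ratio of 1.96 (1.13 to 3.48), Ngfr of 0.523 and Ntrk2 of 0.462, and 11.3% of genes in Nos1 neurons passed 1.5-fold, 3.92% higher and 7.39% lower. Of the Nos1 neurons, 61 of 84 in the anterior library and 23 of 61 in the posterior library had Vip. Within the subclass with Vip, Gfra1 stood at 0.198 in anterior and 0.19 in posterior neurons. Ngfr there was higher in the anterior library, 0.929 against 0.655, and so was Ntrk3, 1.27 against 0.941. Without Vip both were lower in the anterior library, Ngfr at 1.97 against 3.15 and Ntrk3 at 1.73 against 2.75. Ntrk2 was lower in the anterior library with Vip (0.208 against 0.433) and without (0.338 against 0.581).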

How the data were processed

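Single-cell RNA was counted with the Chromium 3′ V3 kit, per the labels' protocols. The deposited values are raw UMI counts per gene and barcode, not normalized by the authors. Per the file headers, Cell Ranger 3.1.0 wrote the mixed matrix and 6.1.2 the others. The submitters' processing notes name Cell Ranger 7.1.0, Seurat 4.4.2 and mm10. Annotation and version therefore differ between the mixed library and the others. The matrices hold 2256, 3276 and 2829 barcodes and 55329380, 86391988 and 119825307 UMIs (anterior, posterior, mixed). No doublet caller was run; leaving out the 3% deepest neurons was an alternative.

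Counts were summed per class and library and tested with edgeR 4.0.16 (quasi-likelihood, TMM, filterByExpr, library as a block, Benjamini-Hochberg, called under 0.05) in R 4.3.3. A fit of 12 sums (glia and 3 neuron classes) gave both comparisons with Npy neurons, 6 sums gave glia against neurons, and 6 gave the Vip split. Standard errors are the log2 change over the root of F. Sums of a library come from the same cell suspension, so the library pairs them. Deviations from class means correlated at 0.66, 0.82 and 0.92 (Ddah1 with Npy) and at 0.50, 0.65 and 0.79 (Nos1 with Npy) over 12138 genes. For glia with Npy neurons they correlated less, at 0.21, 0.21 and 0.39. With 3 libraries that differ in region and age, p-values rest on the spread between these libraries, which may be technical. edgeR estimates that spread partly from all genes together. In the glia fit it came almost wholly from the pooled genes, and in the other fits in large part. The very small p-values of all fits therefore do not measure a receptor's own spread between libraries. The fits were run on simulated data, where 2-fold changes were recovered in 100% (Ddah1 against Npy), 99.0% (Nos1 against Npy), 93.5% (glia) and 82.7% (Vip split) of changed genes. The simulation gave every class the library differences of the reference class and a fixed dispersion, and changed only well-counted genes. It does not cover class differences that vary between libraries, or receptors with few UMIs such as Gfra1 and Gfra3. Intervals are exact 95% Poisson or Clopper-Pearson intervals; ratios have an exact conditional Poisson interval. DESeq2 1.42.0, other scalings, filters, class limits and leaving out libraries were tried. Up to 3 genes per pathway list and comparison were named, the called ones of largest change. The receptors, classes and lists were chosen with earlier results of these data known. Some genes of the pathway lists are not reported here.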

Additional observations from a re-analysis of the deposited data

Results flagged for a closer look

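Ntrk2 was singled out because its class difference took opposite signs between anterior and posterior neurons. Between Ddah1 and Npy neurons its log2 ratio was -0.08 among anterior and 0.50 among posterior neurons, a difference of -0.58, and 0.59 in the mixed library. Between Nos1 and Npy neurons it was -0.29 among anterior and 0.62 among posterior neurons, a difference of -0.92, and 0.15 in the mixed library. With 1 library per region these differences were not tested, and the Npy neurons are shared by both. The Nos1 values rest on 66 anterior and 162 posterior Ntrk2 UMIs, and the Ddah1 values on 120 and 1235. The ratios have no interval, so the sign of the anterior values is not settled.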

How the results depend on the processing

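Of 534 alternative values for single receptors, over 22 settings, 480 kept their direction and their side of the threshold or stayed within the spread, among them all 124 for glia against neurons but 9 of 30 regional ratios, of which 20 moved beyond their counting intervals and 1 turned. Between Ddah1 and Npy neurons 2728 genes were called, against 1760 with DESeq2, 638 with no replicate block (that is, without pairing the classes by library), 4131 with only those 2 classes in the fit, and 1528 to 2496 without single libraries (1528 without posterior). Between Nos1 and Npy neurons 1076 were called, against 250 with no replicate block and 541 to 954 without single libraries (541 without anterior). For the Vip split 975 were called, against 351 with DESeq2, 261 with no replicate block and 690 to 866 without single libraries. Gfra4 between Nos1 and Npy neurons, not called, turned to -0.0030 with DESeq2, -0.013 with no filter on low counts and -0.011 without the 3% deepest neurons, and lay between -0.044 (without anterior) and 0.047 without single libraries. Ntrk2, not called, lay between -0.13 (without posterior) and 0.37 (without anterior). That of Ret was the one that turned, to 0.911 within Npy neurons, that of Lifr ran from 0.598 to 0.771, and receptors past 1.5-fold numbered 2 with TMM factors and 2 among neurons with few glial UMIs, against 1. The mean share of neurons with Ret, Gfra2, Ntrk3 and Ngfr was 43.6% at 10000 UMIs and 90.5% with no thinning, and 40.2% to 49.3% without single libraries. The cause was not tested, except that thinning draws fewer UMIs and the single-library settings fewer samples. Depth limits Gfra1 and Gfra3 in neurons and all receptors in glia.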
